A study of Mus musculus with 7 samples.

Results

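Seminal vesicle tissue of male wild-type mice was dissociated into single cells, and the cells described here were the antigen-presenting cells that fitted neither the macrophage nor the Xcr1 dendritic cell pattern. They were chosen by their RNA. A cell was called a member if it had at least 500 genes, at most 10% of its UMIs (unique molecular identifiers, each counting 1 RNA molecule once) on mitochondrial genes, at least 3 UMIs summed over Ccl22, Il1r2, Emilin2, Ccl9 and Csf2rb, and at least 5 UMIs of Cd74, the chaperone of MHC class II molecules. It also had at most 2 UMIs of the complement genes C1qa, C1qb and C1qc, at most 1 UMI of Xcr1, Clec9a and Wdfy4, and 0 UMIs of Cd3e and Cd79a, which mark T and B cells. Of 40342 cells that passed the quality limits, 179 were members, and each of the 23 mice held at least 1 of them. The values of all these genes chose the members, so their levels are given as a description only.

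Monocytes are blood-borne phagocytes that enter tissues, where they can become macrophages or take on features of dendritic cells. Conventional dendritic cells take up antigen, load it on MHC class II, and after activation switch on the chemokine receptor Ccr7, which guides them through lymph to the draining lymph node, together with chemokines such as Ccl17 and Ccl22 that attract T cells. Both kinds of cell patrol the mucosa of the male tract, in which the seminal vesicle makes most of the fluid of the ejaculate.

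The aging pool held 10 C57BL/6J mice on chow, with 2 mice of 3 months and 2 mice each of 20 and 28 months with and without rapamycin. The diet pool held 8 FVB/NJ mice of 3 months, 2 each on the control diet, caloric restriction, a high fat diet and a low protein diet. The diet single libraries were 3 more FVB/NJ mice of 3 months, fed the control, the high fat or the low protein diet, and the young individual (3 months) and the old individual (18 months) were FVB/NJ mice on the control diet. Strain, pool, chow against the other diets and most of the age range therefore cannot be told apart. The young and old individuals stood apart from the rest, since the seminal vesicle secretory (Svs) genes took 0.00110% and 0.000607% of their UMIs, against 7.84% to 64.0% in the other 21 mice, and genes of epididymis epithelium were found in their members. They held 42 of the 179 members. The counts of genes that passed, the shares of members with Ccr7, Cd209a and Lyz2, the means of the Ccr7 and monocyte lists and the number of clusters are also given for the other 137 members, and most other descriptions include all 179. The mice were the replicates, so p-values measure the spread between these mice. Members had a median of 4428 UMIs (range 879 to 146778), with medians of 5642.5 in the aging pool, 4710.5 in the diet pool, 1514 in the diet single libraries and 1946 in the young and old individuals. No cell barcode was shared between mice of the same library (73 pairs of mice), and at most 30 were shared by a pair from different libraries. The highest share of the smaller matrix, in another pair, was 0.792%.

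Of the 40342 cells, 2569 had at least 5 UMIs of Cd74, 2122 of these lacked Cd3e and Cd79a, 716 of these were within the limit on C1q, and 575 within that on Xcr1. The sum over the 5 marker genes then left the 179 members. Just inside that limit, 32 members had a sum of 3, with a median of 2183 UMIs, and just outside it 50 cells had a sum of 2, with a median of 2113.5 UMIs. The remaining 147 members had 4 or more marker UMIs and a median of 4601 UMIs, so members further inside the limit were also the more deeply sequenced. Csf2rb, the beta chain of the receptors for granulocyte-macrophage colony stimulating factor and interleukin 3, was found in 121 members, and Ccl9, a chemokine of myeloid cells, in 104. Il1r2, the decoy receptor that binds interleukin 1 without signalling, was found in 103, Emilin2, an extracellular matrix glycoprotein, in 103, and Ccl22, a ligand of the receptor Ccr4, in 70.

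The 5 genes did not mark the same members. Emilin2 and Ccl9 were found together in 76 members, which was 73.8% of those with Emilin2 and 73.1% of those with Ccl9. Ccl22 was found with Ccr7 in 54 members, which was 77.1% of the 70 with Ccl22 and 62.8% of the 86 with Ccr7. Of the 36 members with Ccl17, the other ligand of Ccr4, 31 also had Ccl22. Ccl22 and Plac8, a gene of circulating monocytes, shared only 7 members (10% of those with Ccl22 and 12.7% of the 55 with Plac8), and of the 27 members with Slpi, an inhibitor of neutrophil elastase, 1 had Ccl22. Il1r2 was found on both sides, in 54 of the 86 members with Ccr7 and in 38 of the 55 with Plac8. Without the young and old individuals, Ccl22 and Ccr7 were found together in 48 of 137 members, Emilin2 and Ccl9 in 67, Ccl17 and Ccl22 in 26, and Ccl22 and Plac8 in 7. The rule asked for a sum over these 5 genes, so a member without 1 of them had to hold others. That choice by itself lowers sharing among the 5, and can shift that of Ccl22 with Plac8 or Slpi. Sharing also depends on how deeply a cell was sequenced, and no test was made of it.

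Ccl22 and Ccl17 are neighbours in the genome (GRCm38, plus strand, chr8:94745590-94751699 and chr8:94810453-94812036), with 58.8 kb between them. Their promoters are shown because members with Ccl17 mostly had Ccl22 as well. The windows run from 250 bases before to 50 bases after the RefSeq start (build GRCm38.p6), at chr8:94745434-94745733 for Ccl22 and chr8:94810203-94810502 for Ccl17. Motif letters were searched on both strands, and neither window held GGNNTTTCC (the core of an NF-kappa B site, in 5.82% of 32851 such windows), GAGGAAGT (PU.1, in 3.20%) or GAAANNGAA (the core of the interferon response element, in 8.56%), so no base is in capitals.
Ccl22: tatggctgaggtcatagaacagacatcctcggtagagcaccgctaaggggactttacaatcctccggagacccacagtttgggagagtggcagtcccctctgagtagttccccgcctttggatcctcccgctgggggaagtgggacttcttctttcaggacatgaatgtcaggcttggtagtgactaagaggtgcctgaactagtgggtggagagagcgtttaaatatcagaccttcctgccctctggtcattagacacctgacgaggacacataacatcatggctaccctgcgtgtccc
Ccl17: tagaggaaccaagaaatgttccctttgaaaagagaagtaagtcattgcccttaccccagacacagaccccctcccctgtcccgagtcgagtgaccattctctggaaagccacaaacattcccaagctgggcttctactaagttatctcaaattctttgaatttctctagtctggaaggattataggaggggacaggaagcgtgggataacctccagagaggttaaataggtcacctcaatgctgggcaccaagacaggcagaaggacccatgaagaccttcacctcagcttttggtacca

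Against other cells of the tissue, members had high levels of antigen presentation genes. Levels are given as UMIs per 10000 UMIs of a cell, averaged over cells. After the cytoskeletal gene Tmsb4x (329) and the gate gene Cd74 (291), the highest levels were those of Fth1 (226), the ferritin heavy chain, and Cst3 (134), the cystatin C that dendritic cells make in quantity. The MHC class II chains H2-Ab1 and H2-Aa averaged 96.0 and 90.1, against 3.55 and 4.03 in all other kept cells. The chemokine Ccl4 averaged 50.6, the cytokine Il1b 38.0 and the chemokine Ccl5 32.1. Svs5 (103) and Svs4 were also among the 20 highest genes. Svs5 was found in 137 of 179 members, and in 47.3% of 1603 cells of a fibroblast gate, which should not make it. Svs5 averaged 360 in members of the diet single libraries and 0 in those of the young and old individuals, and it averaged 825 in all other kept cells. The Svs level of members thus differed between libraries, and its part in other values was not tested.

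The fibroblast gate gives a background for the share of cells with a UMI of genes that fibroblasts should lack. Ccr7 was found in 48.0% of members, in 44.2% of Xcr1 dendritic cells, in 5.36% of C1q macrophages and in 0.0624% of the fibroblast gate (median 2460 UMIs a cell against 4428 in members). Cd209a, a lectin of the CD209a conventional dendritic 2 pattern, was found in 31.3% of members, in 1.05% of Xcr1 dendritic cells and in 6.09% of C1q macrophages. It was found in 0 of 1603 cells of the fibroblast gate, which allows a share of up to 0.187%. Lyz2, the lysozyme of monocytes and macrophages, was found in 74.3% of members and in 8.86% of the fibroblast gate. Ifitm3 (88.3% and 92.8%) and Thbs1 (25.1% and 56.0%) were found at least as often in the fibroblast gate, which is no background for them if fibroblasts make them, and that was not tested. Without the young and old individuals Ccr7 was found in 52.6% of members, 46.1% of Xcr1 dendritic cells and 6.05% of C1q macrophages, Cd209a in 30.7%, 1.12% and 6.42%, and Lyz2 in 80.3% of members and 1.31% of the 762 remaining cells of the fibroblast gate.

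**Figure D1:**
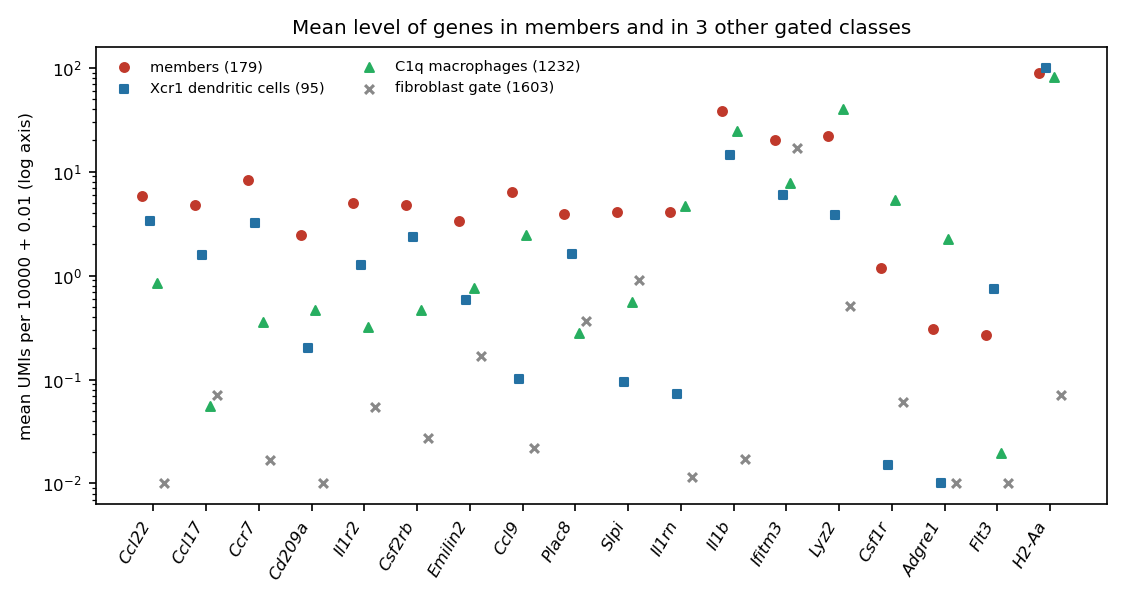
Mean level of 18 genes (UMIs per 10000 plus 0.01, log axis) in members, Xcr1 dendritic cells, C1q macrophages and a fibroblast gate, 1 point for each class, with the number of cells in the legend. Ccr7 averaged 8.40 in members and 0.352 in macrophages, while Csf1r averaged 1.17 and 5.28, and H2-Aa was near 100 in all 3 antigen-presenting classes.

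Most markers of the other cell types that the gate could hold were found in few members. The macrophage list (17 genes) averaged 21.3 per 10000 in members, with Apoe highest at 10.8, against 404 in C1q macrophages. It ran from 3.68 to 51.5 in mice with at least 5 members and stood at 78.5 in the single member of the 20-month rapamycin mouse 1. Of its genes, Adgre1 (the F4/80 antigen) was found in 15 members, Fcgr1 in 9 and Mertk in 5, and Folr2 and Lyve1 were at 0. Of the neutrophil genes, S100a8 and S100a9 were found in 1 member, and Ly6g, Retnlg and Stfa2l1 were at 0. The basophil and mast cell list averaged 0.253 per 10000, with Mcpt8, Cpa3, Ms4a2, Cd200r3 and Cyp11a1 at 0, and the eosinophil list 0.0361, with Siglecf in 1 member. The plasmacytoid dendritic gene Siglech was found in 2. The T and NK list averaged 1.28 per 10000, with its highest gene Gzma at 0.309 and UMIs in 13 members, and the B cell list 0.301, in 24 members. Genes that define conventional dendritic cells were also sparse, with Flt3, the receptor for their growth factor, in 13 members and Zbtb46, their transcription factor, in 16, and the classical monocyte gene Ly6c2 was found in 15. Plac8, Lyz2, Ccr7 and Cd209a were found in more members (55, 133, 86 and 56) than these usual defining genes. Not all of them set members apart, since Ccr7 was nearly as frequent in Xcr1 dendritic cells and Lyz2 was higher in C1q macrophages. The MHC class II list averaged 248 per 10000 in members and 241 in each of those classes. The label of monocytes and other dendritic cells therefore has little backing from the defining genes of either lineage.

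Among the members 8 were marked for high doublet scores, 5 of them from the young and old individuals, where more cells were marked by design than in the pools. Another 3 members, not chosen by that score, had over 20000 UMIs. Of these 3, a cell of the 28-month mouse 1 had 146778 UMIs, of which 57.9% were on Svs genes, a second of the same mouse had 62753, and 1 of the caloric restriction mouse 1 had 60856, and all 3 held UMIs of the epithelial keratin Krt8 (167, 90 and 47). Tests on sums were also run without cells of that depth.

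The range within the members was described with a pair of gene lists. The Ccr7 dendritic list (15 genes of activated, migrating dendritic cells, among them Ccr7, Fscn1, Ccl17, Relb and Traf1) averaged 67.1 UMIs per 10000 in members, 24.6 in Xcr1 dendritic cells and 46.6 in C1q macrophages. Its highest gene in members was Ccl5, at 32.1. The monocyte list (18 genes, among them Ly6c2, Plac8, Ccr2, Lyz2 and Cd14) averaged 79.0 in members, 14.9 in Xcr1 dendritic cells and 80.7 in C1q macrophages, with Lyz2 highest at 22.0. The Ccr7 list was the higher in 85 members and the monocyte list in 88, with 6 equal. In 58 members they lay within 2-fold of each other. Over the members the 2 sums had a Spearman correlation of -0.0117, so they did not run against each other. The lists differ in length and Ccl5 makes up much of the Ccr7 sum. Which sum is higher therefore does not divide the members into 2 kinds of cell. In 16 mice there were members with the Ccr7 list higher and members with the monocyte list higher. Without the young and old individuals the Ccr7 list averaged 76.5 and the monocyte list 88.2 in members, and the Ccr7 list was the higher in 69 and the monocyte list in 66 of 137, with 2 equal.

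**Figure D2:**
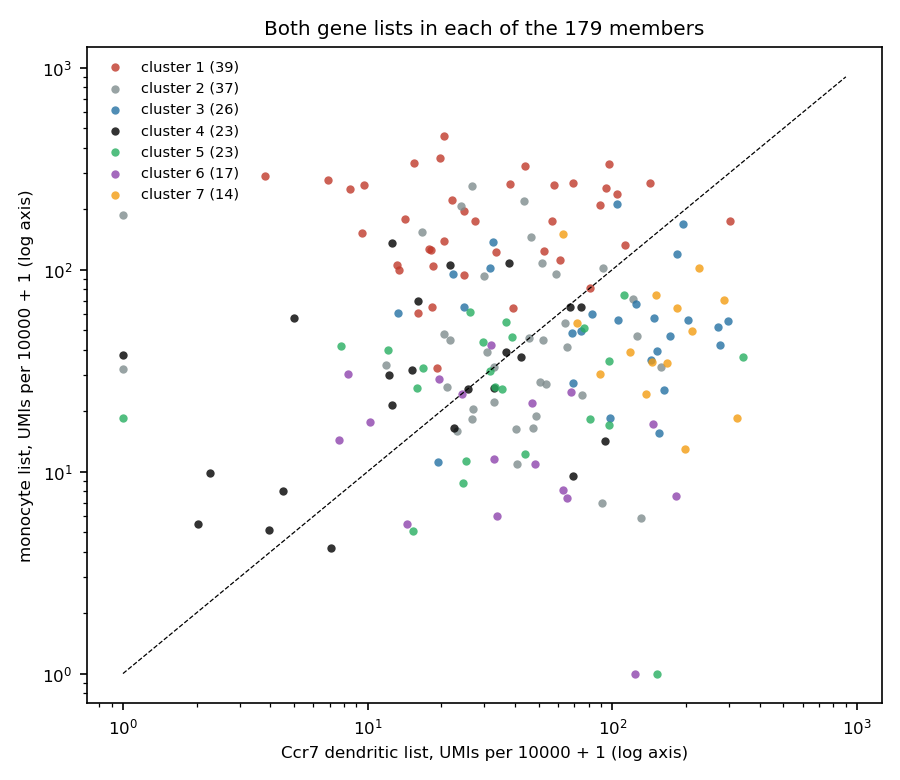
Summed level of the Ccr7 dendritic list (x axis) and of the monocyte list (y axis) in each of the 179 members, as UMIs per 10000 plus 1 on log axes, 1 point a cell, coloured by cluster, with a dashed line at equal levels. Cluster 1 lies mostly above the line (medians 23.6 for the Ccr7 list and 174 for the monocyte list) and cluster 7 mostly below it (157 and 43.4).

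Clustering of the members without the genes of the rule gave 7 clusters, which are described by their leading genes, with no test. Cluster borders moved with the settings: at resolution 1.5 there were 10 clusters, with 21 and 16 of the 39 members of cluster 1 in separate ones, and with log-normalised values 27 of them stayed together. Without the young and old individuals there were 5 clusters, and 36 of the 39 lay in 1 of them, of 44 members. Cluster 1 had 5 genes of the monocyte list among its 10 leading genes and is called monocyte-like. Its 39 members were led by Thbs1 (15.7 per 10000 against 0.655 in the other members), Slpi (15.8 against 0.823), the neutrophil-attracting chemokines Cxcl2 (101 against 8.06) and Cxcl1 (16.7 against 1.10), the lectin Clec4e (17.3 against 1.62) and Plac8 (13.4 against 1.27). Ccl22 was found in 0 of the 39, which allows a share of up to 7.69%, Ccl17 in 1 and Ccr7 in 7, while Lyz2 was found in 38. The 28-month mouse 1 gave 19 of these members, and 12 other mice gave the remaining 20. The monocyte list was higher than the Ccr7 list in 37 of the 39.

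Ccl22 averaged 13.1 per 10000 in clusters 3 and 7 and 12.4 in cluster 5, and at most 5.98 in the others. Cluster 3 (26 members, all from the aging pool) had the neutrophil genes S100a9 and S100a8 among its leading genes from 1 member only. Its other leading genes included the interferon-induced genes Ifit1 (19.1 per 10000 against 3.24 in the other members), Ifit2 and Cxcl10, and the MHC gene H2-Eb1 (108 against 17.7). H2-Eb1 was also higher in C57BL/6J than in FVB/NJ mice, in members and in C1q macrophages (below). Its level in this cluster therefore cannot be told apart from strain and pool. Ccr7 was found in 19 and Ccl22 in 18 of the 26 members. Cluster 7 (14 members, 11 from the diet pool) was led by the monocyte-attracting chemokines Ccl2 (53.6 against 4.15) and Ccl7, by Rsad2 and Isg15 (45.7 against 7.99), which interferon induces, and by the interferon gene Ifnb1, which was found in 7. Ccr7 was found in 13 and Ccl22 in 12 of its 14 members, and Plac8 in 0. Cluster 5 (23 members, 16 from the diet single libraries) had Il12b and Ccl17 among its leading genes and averaged 360 per 10000 for Cst3, against 100 in the other members. Its Il12b, which encodes a subunit of interleukin 12, came from only 2 members.

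The other 3 clusters held genes that go with another cell type or with a library. Cluster 2 (37 members) was led by the epididymis genes Gpx5 and Crisp1, and 24 of its members came from the young and old individuals, while 12 came from the diet pool. Cluster 4 (23 members) was led by Lcn5 (found in 1 member), the smooth muscle gene Acta2 (in 4) and Hspb1, a heat shock gene (in 16), and it held all 8 members with high doublet scores. Cluster 6 (17 members) was led by Txndc16 (in 3 members), Ppt1 (in 10) and Naaa (in 10). It held 3 genes of the Xcr1 dendritic list (Ppt1, Naaa and Cd24a) among its 10 leading genes, beside Ccl17 (15.0 per 10000 against 3.71, but found in only 5 members). None of these 3 clusters was given a cell type name: the genes of the first are those of another tissue, and cells with more than 1 UMI of Xcr1, Clec9a and Wdfy4 had been left out by the rule.

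Members were compared with Xcr1 dendritic cells (95 cells with at least 3 UMIs of Xcr1, Clec9a and Wdfy4) to ask how they differ from the nearest other dendritic population. UMIs were summed per mouse and class in the 6 mice with at least 5 cells of each, 98 members in all, and compared within mice by the quasi-likelihood test of edgeR, with Benjamini-Hochberg adjustment. Of 575 genes outside the gates, 48 were higher in members (8.35%) and 20 lower (3.48%) at an adjusted p of 0.05. Scaling by library size gave 35 higher and 26 lower. Without the young individual 57 genes passed. Since gates defined both classes, genes whose level follows that of a gate gene differ by the choice of cells, and genes too low for the filter, such as Plac8, Slpi, Ccl17 and Cd209a, were not tested.

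The testable monocyte genes were higher in members than in Xcr1 dendritic cells. For the lists, counts stand beside the shares over all genes. Of the 18 genes of the monocyte list 3 could be tested and all 3 were higher, beside 8.35% of all genes. Summed CPM (UMIs of a gene scaled to a common library total, as edgeR gives them) of Lyz2 ran from 1442 to 3140 in members of the 6 mice (median 1999) and from 226 to 567 (median 321) in their Xcr1 dendritic cells. The 2 ranges did not overlap, and the log2 fold change was 2.62 ± 0.26 (SE, edgeR adjusted p = 0.00118). Cd14, the co-receptor for bacterial lipopolysaccharide, ran from 947 to 1811 CPM against 35.2 to 523, with a log2 fold change of 3.18 ± 0.51 (edgeR adjusted p = 0.00617), again without overlap. Ifitm3, an antiviral membrane protein, was higher by a log2 of 1.72 ± 0.25 (edgeR adjusted p = 0.00375) and in 6 of 6 mice. Zeb2, a transcription factor of the monocyte and conventional dendritic 2 lineage, ran from 205 to 593 CPM in members and from 0 to 94.5 in Xcr1 dendritic cells. Its log2 fold change was 4.04 ± 0.49, and Cybb, the catalytic subunit of the phagocyte oxidase, followed with 3.57 ± 0.55. Zeb2 and Cybb averaged only 30.0 and 55.6 CPM in Xcr1 dendritic cells. Both passed the filter on low counts mainly through members, so these rises are a description only.

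Some chemokine and interferon response genes were also higher, beside 8.35% of all genes. Of 6 testable genes of the chemokine list 3 did not pass and 3, Ccl5, Ccl4 and Ccl2, were higher, with log2 fold changes of 4.14 ± 0.90, 3.46 ± 0.86 and 3.66 ± 0.79 (edgeR adjusted p = 0.0194, 0.0334 and 0.0188). Ccl5, which attracts T cells, varied widely among mice, from 518 to 12390 CPM in members, and overlapped the range of 0 to 2196 CPM in Xcr1 dendritic cells. Of 6 testable interferon response genes, Ifitm3, Isg15 and Ifit1 were higher and 3 did not pass. Isg15, a ubiquitin-like protein, ran from 382 to 3853 CPM against 0 to 775, and Ifit1, which binds foreign RNA, from 95.4 to 3231 against 0 to 595. Both ranges overlapped, yet members were higher in 6 of 6 mice for each gene. The fold changes were 3.43 ± 0.65 for Isg15 and 3.53 ± 0.83 for Ifit1 on the log2 scale (edgeR adjusted p = 0.0115 and 0.0267). The calcium-binding genes S100a4 and S100a6 were higher by 3.26 ± 0.82 and 2.78 ± 0.46, and the proteoglycan Sdc4 by 3.21 ± 0.62. Several of these calls were lost under alternatives. Ccl5 passed in 15 of 18 (edgeR adjusted p up to 0.144), Ccl4 in 11 of 18 (up to 0.303), Ccl2 in 12 of 14 (up to 0.0692), Ifit1 in 12 of 18 (up to 0.171) and S100a4 in 10 of 18 (up to 0.122). Without the 28-month mouse 1, and likewise without the control diet mouse 1, none of these 5 genes passed. Their log2 fold changes stayed about as large, from 2.80 (S100a4) to 3.85 (Ccl5) and from 3.01 (Ccl4) to 3.77 (Ccl5). Without the young individual Ccl4, Ifit1 and S100a4 did not pass (edgeR adjusted p = 0.0788, 0.0562 and 0.0582), with log2 fold changes of 3.50, 3.54 and 3.56.

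The promoters of Isg15 and Ifit1, which were both higher, are shown because interferon induces both genes. They are written 5′ to 3′ on the strand of the gene (RefSeq, GRCm38.p6), with matches to GAAANNGAA or GGNNTTTCC on either strand in capitals. The window of Isg15 is chr4:156200769-156201068 on the minus strand, and it holds 3 overlapping matches to GAAANNGAA and 1 to GGNNTTTCC. That of Ifit1 is chr19:34640639-34640938 on the plus strand, and it holds 3 matches to GAAANNGAA. Of all 32851 windows 8.56% hold at least 1 match to GAAANNGAA and 5.82% to GGNNTTTCC. A match is a description of the letters and not of binding.
Isg15: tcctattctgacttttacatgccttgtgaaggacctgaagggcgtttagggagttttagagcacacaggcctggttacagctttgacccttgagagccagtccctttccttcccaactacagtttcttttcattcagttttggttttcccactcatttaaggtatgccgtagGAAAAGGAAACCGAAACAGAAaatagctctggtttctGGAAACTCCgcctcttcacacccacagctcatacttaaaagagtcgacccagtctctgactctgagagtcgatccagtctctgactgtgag
Ifit1: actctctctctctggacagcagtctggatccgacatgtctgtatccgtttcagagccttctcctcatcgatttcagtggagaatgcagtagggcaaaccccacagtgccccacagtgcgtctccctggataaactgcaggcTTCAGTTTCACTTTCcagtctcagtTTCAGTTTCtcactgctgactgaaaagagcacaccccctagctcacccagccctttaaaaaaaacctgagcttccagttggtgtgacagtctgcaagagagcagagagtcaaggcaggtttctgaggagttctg

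Of 3 testable genes of the Xcr1 dendritic list, Irf8 and Ppt1 were lower and 1 did not pass, beside 3.48% of all genes that were lower. Irf8, the transcription factor on which Xcr1 dendritic cells depend, ran from 59.3 to 205 CPM in members and from 342 to 1207 in Xcr1 dendritic cells, with no overlap and a log2 fold change of -2.23 ± 0.24. Ppt1, a lysosomal thioesterase, fell by 1.97 ± 0.28, and outside the list Psmb9, a subunit of the immunoproteasome, fell by 1.86 ± 0.21. Irf8, Ppt1 and Psmb9 averaged only 117, 90.5 and 120 CPM in members. They passed the filter on low counts mainly through Xcr1 dendritic cells, so these falls are a description only. Cst3 was lower in 6 of 6 mice by 1.22 ± 0.23 (edgeR adjusted p = 0.0104), from 8279 to 24750 CPM in members against 24418 to 31630. Hmgb2, a chromatin protein of dividing cells, fell by 1.53 ± 0.23 and the histone H2afz by 1.09 ± 0.19. Ckb, Pkib, Nap1l1 and Pomp completed the 10 largest falls among genes with the same direction in every mouse, with log2 fold changes of -1.77 ± 0.40, -1.75 ± 0.44, -1.25 ± 0.23 and -1.06 ± 0.22. Some of these calls were lost under alternatives. Ckb passed in 9 of 13 (log2 fold changes -2.10 to -1.46) and Pkib in 10 of 17 (-2.25 to -1.43). Nap1l1 passed in 15 of 17 and Pomp in 14 of 17.

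The MHC class II list passed at a share close to that of all genes. Of its 7 testable genes 1 was higher, the protease Ctss (log2 fold change 1.23 ± 0.22, edgeR adjusted p = 0.00956), and 6 did not pass. Over all genes 8.35% were higher, and 507 of 575 did not pass. H2-Aa and H2-Ab1 had log2 fold changes of -0.09 ± 0.12 and -0.01 ± 0.16. Il1b was higher by 1.04 ± 0.22 (edgeR adjusted p = 0.0162), the only testable gene of its list, and it passed in 15 of 18 alternatives. Ccr7 did not pass, at 1.03 ± 0.42 (edgeR adjusted p = 0.155), with 221 to 1808 CPM in members against 0 to 827. In 28-month mouse 1, whose members were largely monocyte-like, Ccr7 was lower in members (221 CPM) than in Xcr1 dendritic cells (402 CPM), and in the other 5 mice it was higher. Without that mouse 34 genes passed in place of 68, and without the monocyte-like cluster 40.

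**Figure D3:**
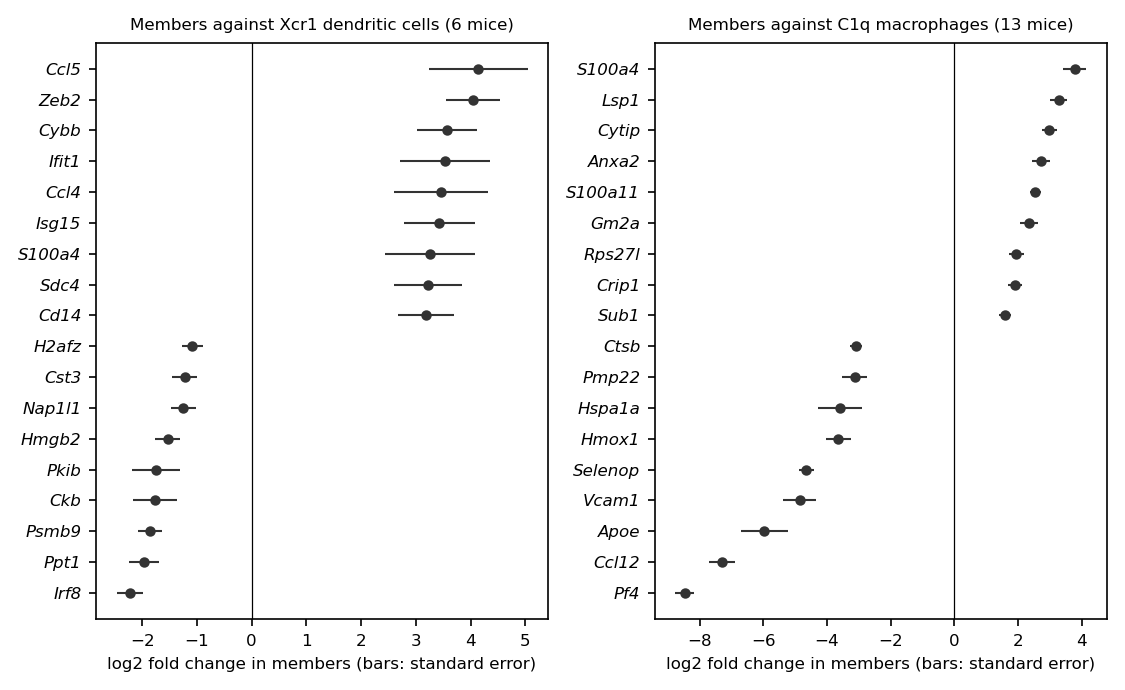
Log2 fold changes in members (x axis, bars show the standard error) of the 9 strongest rises and 9 strongest falls among genes with the same direction in every mouse, against Xcr1 dendritic cells (left, 6 mice) and C1q macrophages (right, 13 mice). On the left Ccl5 and Zeb2 lead the rises and Irf8 the falls, and on the right S100a4 and Lsp1 lead the rises and Pf4 and Ccl12 the falls. Pf4 and Ccl12 passed the filter on low counts through macrophages, so their falls are a description only.

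C1q macrophages (1232 cells with at least 10 UMIs of C1qa, C1qb and C1qc) were the second population compared, since monocytes give rise to macrophages in many tissues. Sums were made in the 13 mice with at least 5 cells of each class, with 154 members. Of 672 genes outside the gates, 163 were higher (24.3%) and 179 lower (26.6%) in members at an adjusted p of 0.05 (edgeR), 50.9% in either direction. Without the young and old individuals 273 genes passed, and a count within a list has to be read against the shares above.

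Genes that macrophages use to clear cells and lipids were low in members. All 6 testable genes of the macrophage list were lower, beside 26.6% of all genes, with a median log2 fold change of -3.31. Apoe, a lipid carrier, ran from 0 to 2541 CPM in members (median 194) and from 10850 to 58743 in macrophages (median 18694), without overlap, and its log2 fold change was -5.97 ± 0.74 (edgeR adjusted p = 8.33e-06). Selenop, a selenium carrier, reached at most 130 CPM in members and at least 596 in macrophages. Pf4, the platelet factor 4 chemokine, was at 0 in members of 12 of 13 mice and ran from 416 to 2222 CPM in macrophages, and Ccl12 was at 0 in members of 11. Both, like Selenop, passed the filter on low counts through macrophages, so their falls are given as a description only. Selenop is 1 of the 6 genes of the macrophage list above, so that count was in part set by the filter. Of 13 testable lysosome and protease genes 12 were lower, beside 26.6% of all genes, among them the cathepsin Ctsb, with 77.7 to 584 CPM in members against 1671 to 2900. Csf1r, the receptor for macrophage colony stimulating factor, ran from 0 to 155 CPM against 261 to 787 (log2 fold change -2.79 ± 0.34). Vcam1, Hmox1, Hspa1a and Pmp22 fell by 4.85, 3.64, 3.58 and 3.12 on the log2 scale. Vcam1, Hmox1 and Pmp22 averaged only 29.4, 44.8 and 78.2 CPM in members. These 3 genes and Csf1r passed the filter mainly through macrophages, so their falls are a description only.

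Inflammatory chemokines were lower than in macrophages too. Of 12 testable chemokines 10 were lower and 0 higher, beside 26.6% and 24.3% of all genes. The 10 include Pf4 and Ccl12, which passed the filter on low counts through macrophages, so their fall was set by that filter. Ccl3 ran from 110 to 1546 CPM in members against 715 to 8547 (log2 fold change -2.71 ± 0.21, edgeR adjusted p = 8.44e-08). Ccl4, which was higher than in Xcr1 dendritic cells, was lower than in macrophages by 1.66 ± 0.20, and Ccl5 did not pass (0.37 ± 0.29). Tnf, an inflammatory cytokine, fell by 2.57 ± 0.40. Of 17 testable dissociation stress genes 16 were lower in members, among them Fos, Jun and Dusp1, beside 26.6% of all genes. This list, which marks handling of the tissue, thus moved with the comparison, and its part in the result was not tested. Of 4 testable genes of the monocyte list Csf1r, Lyz2 and Cd14 were lower than in macrophages and only Ifitm3 was higher, with a median log2 fold change of -1.26, whereas those tested against Xcr1 dendritic cells were higher. Csf1r passed the filter on low counts mainly through macrophages, so its fall is a description only. Cd14 was lower in 11 of 13 mice (log2 fold change -1.16 ± 0.28, edgeR adjusted p = 0.00251). Lyz2 lay between the other 2 classes, lower than in macrophages in 13 of 13 mice (log2 fold change -1.35 ± 0.25, edgeR adjusted p = 0.000317).

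Among the genes higher in members were several of the actin cytoskeleton. S100a4 ran from 175 to 1413 CPM against 0 to 161 (log2 fold change 3.78 ± 0.37). Lsp1, a leukocyte actin-binding protein, and Cytip, which loosens the contact of dendritic cells and T cells, were higher by 3.28 ± 0.27 and 2.99 ± 0.24. None of these 3 genes overlapped between the classes. They averaged only 61.0, 51.4 and 96.6 CPM in macrophages and passed the filter on low counts mainly through members, so their rises are a description only. Of 8 testable cytoskeleton and migration genes 4 were higher (Actg1, Vim, Tmsb4x and Coro1a) and 0 lower, beside 24.3% and 26.6% of all genes. Of 10 testable NF-kappa B response genes, Traf1 and Rel were higher, at 1.83 ± 0.22 and 0.91 ± 0.17, and Icam1 and Ier3 were lower, so the list had no common direction. Anxa2, S100a11, Gm2a, Rps27l, Crip1, Sub1 and Dusp5 completed the 10 largest rises among genes with the same direction in every mouse, with log2 fold changes between 1.53 and 2.72. Ifitm3 was higher by 0.91 ± 0.20 (edgeR adjusted p = 0.00133), the only 1 of 8 testable interferon response genes that rose. Of the others Oasl1, Bst2, Cxcl10 and Ly6e were lower and 3 did not pass, and the median log2 fold change of the list was -0.80. The MHC class II chains again did not pass, with H2-Aa at 0.04 ± 0.15 and H2-Ab1 at 0.27 ± 0.12 (edgeR adjusted p = 0.864 and 0.0721), while the proteases Ctss, Ctsh, Lgmn and Ctsl of the same list were lower. Il1b was at 0.41 ± 0.23 and its natural inhibitor Il1rn at -0.47 ± 0.31, and neither passed (edgeR adjusted p = 0.143 and 0.225).

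Levels within the members differed among mice. In the 13 mice with at least 5 members, Ccl22 averaged between 1.15 UMIs per 10000 (caloric restriction mouse 1) and 11.5 (caloric restriction mouse 2), with a median of 6.86. Ccr7 ran from 1.25 (3-month mouse 2) to 19.0 (control diet single library), and Il1b from 15.3 to 80.6, also highest in the control diet single library. Plac8 ran from 0.142 in the young individual to 14.5 in the 28-month mouse 1, and Slpi from 0, in 4 mice, to 12.7 in the 28-month mouse 1. Cd209a was highest in the 28-month mouse 2 (6.19) and at 0 in the low protein diet single library. With 5 to 35 members a mouse, these means rest on few cells.

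The share of members among kept cells was compared over mice. It was 1.44% ± 1.72 (SD, n = 10) in the aging pool, with 0.410% as the lowest, 0.672% as the median and 6.04% as the highest value, and 0.675% ± 0.209 (SD, n = 8) in the diet pool, from 0.476% to 1.02%. The 28-month mouse 1 held 30 members among 497 cells (95% Wilson interval 4.26% to 8.49%), and the next highest mouse was the 3-month mouse 1 with 1.97%. The difference of 0.763 percentage points was within the spread between mice (two-sided exact permutation test, p = 0.221, adjusted over the 3 share tests 0.332), and without the 28-month mouse 1 it was 0.252 points. As a share of the Cd74 cells (members, Xcr1 dendritic cells and C1q macrophages) the direction turned, with 7.26% ± 5.02 for the aging pool and 8.99% ± 4.68 for the diet pool (SD, n = 10 and 8, exact permutation test, p = 0.465). In the diet single libraries members made up 0.308%, 0.286% and 0.136%, and in the young and old individuals 0.382% and 0.0768%. Of the Cd74 cells they made up 34.2%, 50.0% and 35.7% in the single libraries, above both pool means, and 33.3% and 6.93% in the young and old individuals. When every cell was thinned to 2000 UMIs, 60, 28, 6 and 13 members were found among the aging pool, the diet pool, the diet single libraries and the young and old individuals, which was 1.42%, 0.680%, 0.0692% and 0.144% of the cells of that depth.

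**Figure D4:**
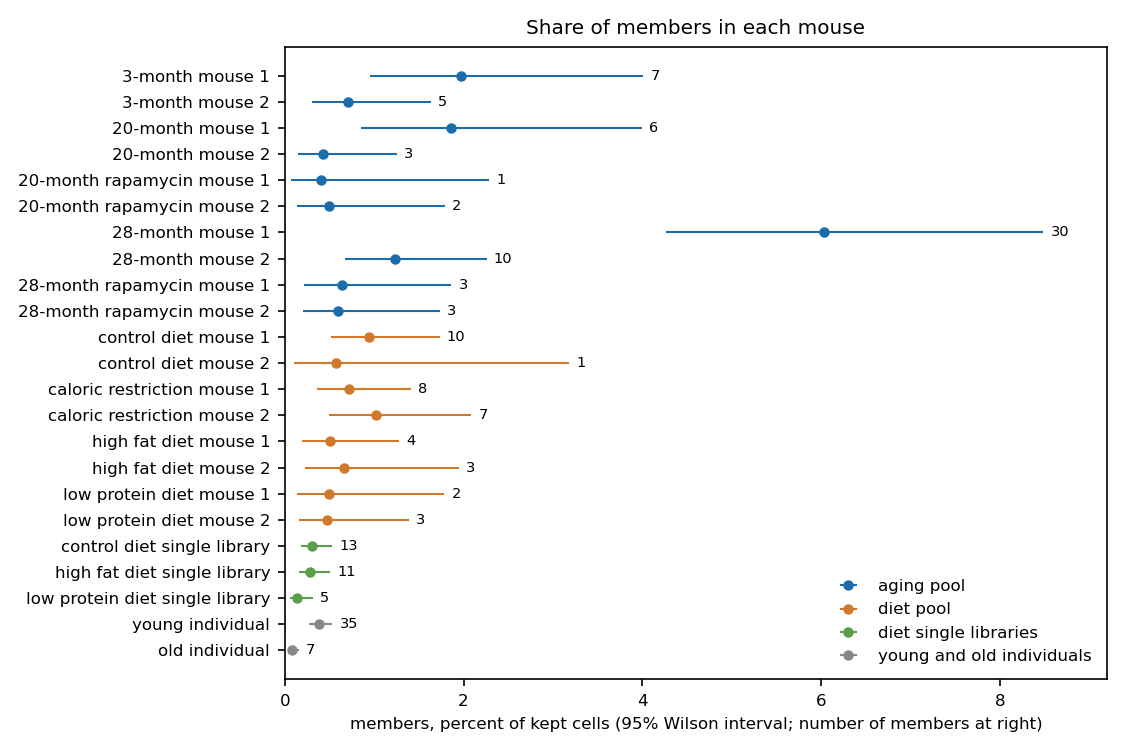
Members as a percentage of kept cells in each of the 23 mice (points) with the 95% Wilson interval (bars) and the number of members at the right, coloured by library set. The 28-month mouse 1 lies at 6.04%, and the other 22 mice lie between 0.0768% and 1.97%.

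Age and rapamycin could be compared within the aging pool, where strain and library are the same. The 8 mice of 20 and 28 months had 1.46% ± 1.91 and the 2 mice of 3 months 1.34% ± 0.896 members (SD, exact permutation test, p = 1, where 45 splits allow no less than 0.0222). The medians ran the other way, at 0.617% and 1.34%, and without the 28-month mouse 1 the older mice averaged 0.809% ± 0.541 (SD), a difference of -0.529 points (exact permutation test, p = 0.25). Of the 8 older mice 4 had been given rapamycin, and the other 4 alone averaged 2.39% ± 2.50 (SD), a difference of 1.05 points (exact permutation test, p = 0.8, where 15 splits allow no less than 0.0667). Without the 28-month mouse 1 that difference was -0.164 points (exact permutation test, p = 0.7). The 4 rapamycin-treated mice of 20 and 28 months had 0.410%, 0.496%, 0.640% and 0.594% members. The 4 untreated mice of these ages had 1.86%, 0.429%, 6.04% and 1.24%. The means were 0.535% ± 0.103 and 2.39% ± 2.50 (SD, n = 4 each), and the difference of -1.85 points did not pass (two-sided exact permutation test, p = 0.114, adjusted 0.332, with 0.0286 as the smallest p that 70 splits allow). The ranges overlapped through the untreated 20-month mouse 2, without which the difference was -2.51 points (exact permutation test, p = 0.0286, the smallest that 35 splits allow, which follows from leaving out the mouse that overlaps), and without the 28-month mouse 1 it was -0.639 points (p = 0.114, exact permutation test). As a share of the Cd74 cells the difference was -6.78 points (exact permutation test, p = 0.0857).

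Expression in members was compared between the 5 mice of the aging pool and the 3 mice of the diet pool with at least 5 members. These 3 were the control diet mouse 1 and the caloric restriction mice 1 and 2, while the aging pool was on chow. Diet therefore cannot be told apart from strain and pool here. Of 593 genes 1 was higher in the aging pool (0.169%) and 0 lower at an adjusted p of 0.05 (edgeR), while 92 had an unadjusted p under 0.05, and DESeq2 passed 33 of 12273. The gene was H2-Eb1, the beta chain of the MHC class II molecule H2-E. It stood at 6737 and 6522 CPM in the 3-month mice, at 7921 in the 20-month mouse 1 and at 3363 and 9518 in the 28-month mice, against 578, 265 and 280 in the diet pool. The log2 fold change was 4.19 ± 0.45 (edgeR adjusted p = 0.00346), and over the 16 alternatives the adjusted p ran from 5.92e-15 to 0.878, passing in 14. It did not pass with at least 10 members a mouse, which left 3 mice, or without the caloric restriction mouse 2 (log2 fold changes 3.50 and 4.02, edgeR adjusted p = 0.878 and 0.0805). The same split was seen in C1q macrophages, where CPM, scaled in that comparison, ran from 4494 to 8195 in the 5 C57BL/6J mice and from 144 to 715 in 8 FVB/NJ mice, among them the single libraries, and from 275 to 715 in the 6 that remained without the young and old individuals. H2-Aa and H2-Ab1, which lie beside H2-Eb1 on chromosome 17, did not pass.

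**Figure D5:**
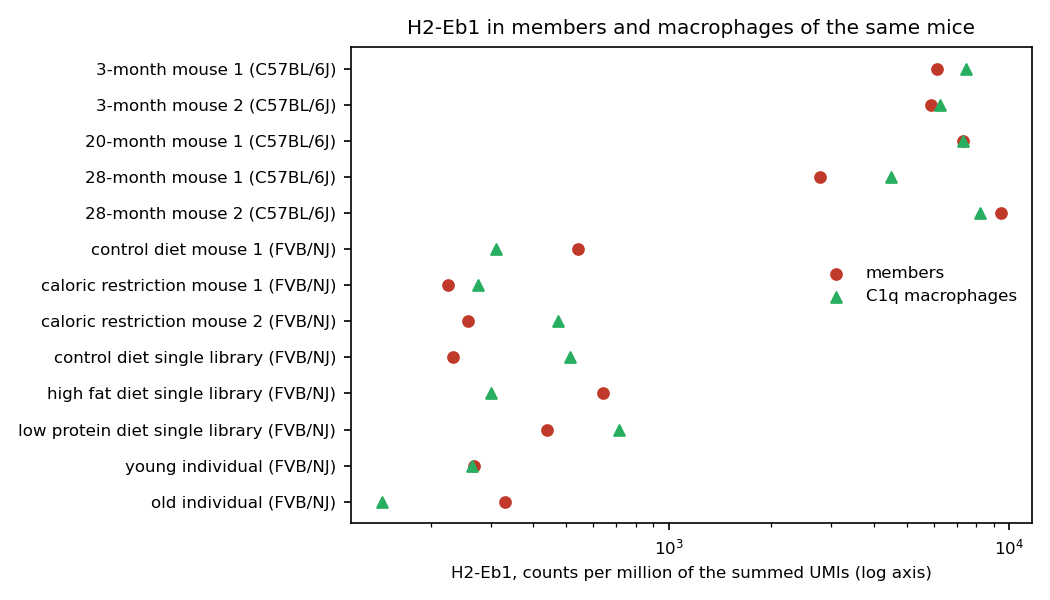
H2-Eb1 in CPM of the summed UMIs (log axis) in members (circles) and C1q macrophages (triangles) of the 13 mice with at least 5 cells of both. The 5 C57BL/6J mice lie between 2788 and 9451 and the 8 FVB/NJ mice between 144 and 715, over both classes, with CPM scaled in the macrophage comparison, so that values of members differ slightly from those scaled among members alone.

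Other differences between the pools did not pass in edgeR. The monocyte gene Plac8 and the protease inhibitor Slpi had log2 fold changes of 2.34 ± 0.72 and 4.05 ± 1.16 (edgeR adjusted p = 0.155 and 0.141), with CPM of 618 ± 438 against 124 ± 47.1 for Plac8 and of 388 ± 322 against 26.5 ± 37.4 for Slpi (SD, n = 5 and 3). With DESeq2 both passed (adjusted p = 0.0455 and 0.0195). Ifitm3 was at 1.03 ± 0.44 and Il1rn at 0.87 ± 0.48 (edgeR adjusted p = 0.304 and 0.448). Svs RNA moved with the pools as well, since Svs5 had a log2 fold change of 4.91 ± 1.35 (edgeR adjusted p = 0.124) and all 8 testable secretory genes had log2 fold changes of 4.20 or more, and its part in the other values was not tested. Svs5 passed with DESeq2 (adjusted p = 5.12e-05). Without the 3 members over 20000 UMIs its log2 fold change was 2.64 and it passed (edgeR adjusted p = 0.0461), as it did without the 28-month mouse 1 (3.19, edgeR adjusted p = 0.0307). Without those 3 members, 23 genes passed in all, among them the secretory genes Svs2, Svs5, Svs6, Sva, Ceacam10 and Pate4, and Lgmn, Nfkbia, Oasl1 and Ifih1, in the aging pool and H2afz and 5 ribosomal protein genes in the diet pool. Without the 28-month mouse 1, 18 genes passed, of which 16 were among these 23. No trend with age was fitted, since only 5 mice of the aging pool held at least 5 members.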

How the data were processed

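Single-cell RNA libraries (10x Genomics) of seminal vesicle from 23 mice were analysed, in 2 pools of tagged mice and 5 libraries of 1 mouse each. The authors deposited raw UMI counts per gene and cell, made with Cell Ranger 6.0.1 (18 matrices of the pools) or 3.1.0 (5 matrices) on mm10, with cells already called and assigned to mice. The age, diet and rapamycin of each tagged mouse came from the table names after demultiplexing together with the list of animals of the study, since the labels describe the pools only as a whole. Of 53352 cells 40342 had at least 500 genes and at most 10% mitochondrial UMIs. Genes were joined by Ensembl ID (30406 shared, 597 of them with another symbol), and 12 multiplexing tag entries were left out.

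The members and lists were chosen with earlier results of these data known. UMIs were summed per mouse and class in mice with at least 5 cells and tested with edgeR 4.0.16 (R 4.3.3, TMM scaling, filterByExpr, quasi-likelihood test, Benjamini-Hochberg adjustment, threshold 0.05), with the mouse as a block between classes, and with DESeq2 1.42.0 as an alternative. Genes of the gates were left out of those calls. Named genes were the 10 largest rises and falls with 1 direction in every mouse, and the genes of the lists, of which 1 is not reported here. Shares were compared over mice by two-sided exact permutation tests, with 95% Wilson intervals, which cover counting error only, as does the limit of 3 counts for a count of 0. Clusters came from Pearson residuals of 1000 variable genes, 15 principal components, 10 neighbours and the Leiden method (leidenalg 0.10.2) at resolution 0.8. Doublets were scored against simulated ones within each library and marked but not removed. The number marked was set in advance, at 0.8% per 1000 deposited cells of a library, divided by the number of mice in a pool. In the pools, where cells had been assigned to mice by tags before deposit, this came to 0.506% and 0.666% of cells. In the young and old individuals it came to 9.42% and 8.58%. The fit was also tested on simulated data, with 200 genes changed by a log2 of 2. It recovered 97.0% of 197 tested against Xcr1 dendritic cells (595 genes run) and 96.5% of 200 against C1q macrophages (820 genes). Between the pools it recovered 83.2% of 191 (591 genes). The changed genes were drawn from those above the median count, and no mouse effect was simulated. Recovery of lower genes was therefore not tested.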

Additional observations from a re-analysis of the deposited data

Results flagged for a closer look

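In 20 groups of 4 to 10 values, 4 values from 2 mice lay far from the others of their group, where chance marks about 1 group in 20. The 28-month mouse 1 had 6.04% members among kept cells, against a next highest value of 1.97% and a median of 0.672% in the 10 mice of the aging pool. The same mouse had members as 18.8% of Cd74 cells, where the next was 10.6%. Its members also held 123566 CPM of Svs5, against 22590 in the next of the 5 mice of the aging pool with at least 5 members, and 1 of its members had 146778 UMIs, of which 57.9% were on Svs genes. In the 3-month mouse 1, Ccl17 stood at 1706 CPM in members, against 355 in the next mouse and a median of 202.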

How the results depend on the processing

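The names of the tables number the mice 1 and 2 in each group of the pools, but no source ties a number to a litter or batch, and the deviations of mice with the same number correlated from -0.545 to 0.555 over 36 pairs of groups, with 11 over 0.1. With the number as a replicate block the share differences were 0.763 between the pools, 0.124 by age and -1.85 by rapamycin (exact permutation test, p = 0.199, 1 and 0.167), 1 gene passed between the pools, and no call changed. The comparisons between classes were paired within mice, and without the mouse as a block 39 genes passed against Xcr1 dendritic cells, in place of 68. The count there was 104 with DESeq2, 211 with no filter on low counts, 31 after thinning to 2000 UMIs, 40 without the monocyte-like cluster and 34 to 71 when 1 mouse was left out. Against C1q macrophages, 342 genes became 813 with DESeq2, 1139 with no filter, 216 with at least 10 cells a mouse, 170 after thinning and 267 to 427 without 1 mouse. Between the pools, 1 gene became 33 with DESeq2, 41 with no filter, 0 with at least 10 members, 2 without high doublet scores, 2 with 0 UMIs of C1q, 23 without cells over 20000 UMIs and 0 to 18 without 1 mouse. The cause of these moves was not tested. As a share of Cd74 cells the pool difference turned to -1.73 points and the age difference to -2.15, and the age difference was -0.000200 with a marker sum of at least 5 and -0.529 to 0.758 without 1 mouse, negative without the 28-month mouse 1 or the 3-month mouse 2 (-0.529 and -0.509), and -0.164 without the rapamycin mice and the 28-month mouse 1. The rapamycin difference ran from -2.51 to -0.639 points without 1 mouse, with p = 0.0286 (exact permutation test, the smallest that 35 splits allow) without the 20-month mouse 2, the mouse that overlaps. Without the 28-month mouse 1 the pool difference was 0.252. Scaling by library size moved the median of all genes to -0.15, 0.13 and -0.08. Of the single genes followed, 13 of 32 called against Xcr1 dendritic cells and 62 of 79 against C1q macrophages passed under every alternative run, and none changed direction. The alternatives with the rapamycin mice or any older mouse left out of the age comparison, with cells over 20000 UMIs, clusters or mice left out of the gene tests, with the 28-month mouse 1 left out of the pool share, with the replicate block and with the young and old individuals left out of the clustering, were chosen after seeing the data. Clusters numbered 7 with log-normalised values, 10 at resolution 1.5 and 5 without the young and old individuals. The comparison with Xcr1 dendritic cells could not be fitted with at least 10 cells, and the age trend was not run.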
